A study of Mus musculus with 12 samples.

Results

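The sphingosine 1-phosphate (S1P) system was described across mouse muscle vascular anomalies and normal muscle through 8 genes, out of 30389 in the deposited table. They encode 4 S1P receptors (S1pr1, S1pr2, S1pr3 and S1pr4), the kinases Sphk1 and Sphk2, the exporter Spns2 and the lyase Sgpl1, and were taken by gene symbol, or by Ensembl ID where the symbol was empty. The rule used no measured value, but the genes were chosen with earlier results of these data known. All 8 had reads in each of the 12 libraries. Messenger RNA was sequenced from 6 C57BL/6 animals, every one of which carried the Sleeping Beauty (SB) transposase and onc3, the transposon it moves. In 3 animals VEC-Cre was added, Cre recombinase under the promoter of the endothelial adhesion gene for VE-cadherin, and the tissue sequenced was the vascular anomaly that formed in their muscle. Normal muscle came from 3 animals without Cre. There were 2 libraries per animal, made from 2 tissue pieces (2 lesions in anomaly animal 2), so replicates were counted as animals (n = 3 in each group). Ages were not given in the sources used here.

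S1P is a lipid made inside cells when a sphingosine kinase phosphorylates sphingosine. Endothelial and blood cells export it, and it signals through G protein-coupled receptors on the cell surface, where it is known for tightening endothelial junctions, stabilising new vessels and guiding lymphocytes out of tissue. It is removed either by phosphatases, which return sphingosine, or by the lyase, which breaks the molecule irreversibly.

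Recovered depth was 254404 reads in piece 1 of anomaly animal 1, from 9650550 to 18476461 reads in the other anomaly libraries and from 17380211 to 32155879 in the normal ones. In the shallow piece, 1 unit was worth 1.85 CPM (reads scaled by the authors to an adjusted library size). The adjusted size was 0.71 to 0.80 times the recovered reads in normal libraries and 1.43 to 2.12 times in anomaly libraries. CPM thus did not sum to a common total, and an equal share of reads gave a lower CPM in anomaly libraries. In the shallow piece 18740 genes had a value, where sampling from piece 2 of the same animal at that depth would give 12304. Its units may therefore not be single reads as sequenced. Muscle fibre markers summed to between 225195 and 306755 CPM in normal libraries and to between 201 and 36922 CPM in anomaly libraries, and none of the 8 was at 0 in any library. The 10 endothelial markers summed to 316 to 507 CPM in normal libraries and 2151 to 7328 CPM in anomaly libraries, all 10 rose, and none was at 0. Y-linked Ddx3y stood at 5.82 log2(CPM + 1) in normal animal 2 and at most 0.06 in the other animals. In bulk tissue, a change in the number of cells of a type and a change in RNA per cell cannot be told apart.

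The stretches of DNA just before the starts of S1pr2, S1pr3, S1pr4 and Sgpl1 are shown because these genes rose together and have 1 start each in the RefSeq promoter table (GRCm38.p6), which matched 7 of the 8 genes (all but S1pr1). Each run is the 250 bases before the start, 5′ to 3′, and capitals mark CACCC or its reverse complement GGGTG, the core bound by KLF factors such as KLF2, an endothelial flow-response factor.
S1pr2: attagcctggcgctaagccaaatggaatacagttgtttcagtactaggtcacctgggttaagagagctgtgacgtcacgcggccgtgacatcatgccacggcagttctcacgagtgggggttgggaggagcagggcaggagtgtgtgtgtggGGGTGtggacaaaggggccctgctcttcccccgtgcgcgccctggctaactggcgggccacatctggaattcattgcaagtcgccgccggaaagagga
S1pr3: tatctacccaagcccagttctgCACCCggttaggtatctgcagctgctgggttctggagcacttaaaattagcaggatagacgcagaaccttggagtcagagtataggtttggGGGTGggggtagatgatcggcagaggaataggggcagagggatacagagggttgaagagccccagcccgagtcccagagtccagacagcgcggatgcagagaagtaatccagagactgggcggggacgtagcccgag
S1pr4: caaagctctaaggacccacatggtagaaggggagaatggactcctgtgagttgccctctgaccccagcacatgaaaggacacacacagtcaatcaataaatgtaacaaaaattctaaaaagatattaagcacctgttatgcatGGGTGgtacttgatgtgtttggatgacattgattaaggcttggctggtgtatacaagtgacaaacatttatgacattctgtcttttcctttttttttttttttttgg
Sgpl1: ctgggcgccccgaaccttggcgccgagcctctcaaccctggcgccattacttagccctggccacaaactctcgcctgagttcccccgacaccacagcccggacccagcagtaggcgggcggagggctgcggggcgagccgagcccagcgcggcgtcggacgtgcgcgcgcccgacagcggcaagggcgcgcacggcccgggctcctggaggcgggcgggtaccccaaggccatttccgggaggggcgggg
They lie at chr9:20976794-20977043, minus strand (S1pr2), chr13:51408368-51408617, plus strand (S1pr3), chr10:81500138-81500387, minus strand (S1pr4) and chr10:61147685-61147934, minus strand (Sgpl1). The KLF core stood once before S1pr2, beginning 98 bases before the start, once before S1pr4, beginning 107 bases before it, and at 228 and 137 bases before S1pr3. Sgpl1 had none in this window. The core is common, occurring on either strand in 52.0% of 32851 such windows. CCGGAA, the core of ETS factors, was found on either strand before S1pr2 (12 bases before the start) and Sgpl1 (17 bases), against 12.03% of all windows, and it overlapped no KLF core. Both cores also stood before a start of Sphk1, which rose, and of Sphk2, which fell slightly. Neither stood before Spns2, which was not called. A link of these cores to the levels was not tested. The windows printed above also differed in composition. That of Sgpl1 was 74.8% G and C with 31 CpG dinucleotides, S1pr2 had 59.2% and 14, S1pr3 had 56.4% and 9, and S1pr4 had 38.8% and 0.

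The comparison asked how transcripts of this signalling system in anomaly tissue with endothelial transposition differed from those in normal muscle. The receptors S1pr1, S1pr2, S1pr3 and S1pr4, the kinase Sphk1 and the lyase Sgpl1 rose, the kinase Sphk2 fell slightly, and the exporter Spns2 was not called. With limma across 14687 genes, 6 of the 8 were higher and 1 lower at a Benjamini-Hochberg adjusted p under 0.05, where 32.4% of all genes tested were higher and 31.0% lower (63.4% in all). Scaling by library totals alone moved that split to 55.8% higher and 11.5% lower, and trimmed mean scaling without the 50 most abundant genes to 24.9% and 38.5%. The median log2 difference was 2.52 over the 8 genes and 0.09 over all genes tested. Anomaly and normal libraries did not overlap for the 6 higher genes, and 28.8% of all genes tested lay higher without overlap (56.3% in either direction). By animal means, 7 of the 8 did not overlap, against 73.0% of all genes tested (37.6% higher). All 8 passed the filter (1 CPM or more as a group mean), Sphk1 through the anomaly group alone. Differences below subtract normal from anomaly on the log2(CPM + 1) scale and carry the fit's standard error.

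**Figure D1:**
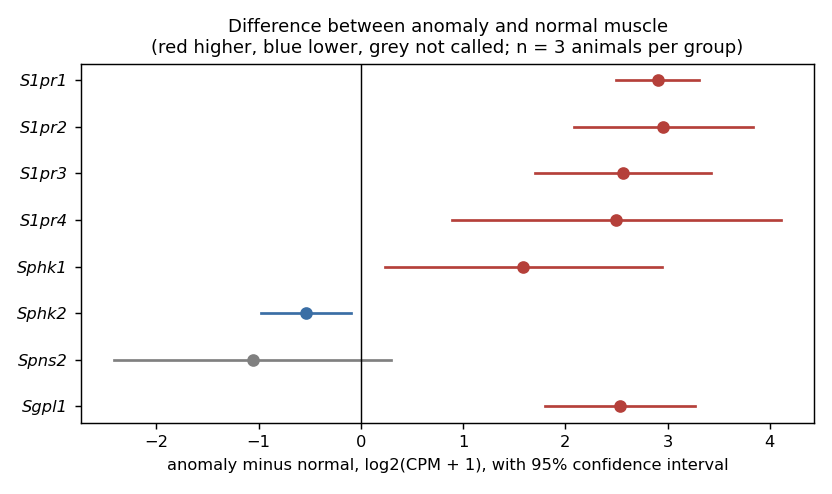
Difference between anomaly and normal muscle in log2(CPM + 1) for the 8 genes (vertical axis), with points for the estimate and lines for its 95% confidence interval (n = 3 animals per group). The 4 receptors and Sgpl1 lie between 2.50 and 2.96, Sphk1 at 1.59, Sphk2 at -0.53, and the interval of Spns2 crosses 0.

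S1pr1, the main endothelial S1P receptor, which couples to the inhibitory G protein Gi and is required for vessel maturation, was the most abundant receptor per length in both tissues (ENSMUSG00000045092, protein coding, GRCm38 chromosome 3, 115710433 to 115715072, 2 exons). Its 2 libraries held 141 and 288 CPM for anomaly animal 1, 300.1 and 159.7 CPM for animal 2 and 285 and 244 CPM for animal 3. For normal animals 1, 2 and 3 they held 35.9 and 25.6, 34.3 and 28.4, and 27.6 and 26.2 CPM. The lowest anomaly library, the shallow piece, was thus far above every normal library, and the animals of each group lay close together. The group means were 236 ± 25.6 and 29.7 ± 2.42 CPM (SD, n = 3), and the difference was 2.90 ± 0.17 (limma adjusted p = 1.42e-04). Pieces of 1 anomaly animal differed by up to 1.03 log2 units, more than the 0.39 between the animals' means.

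S1pr2, which couples to G12/13, opposing S1pr1 in endothelium, was a low-level transcript in normal muscle (ENSMUSG00000043895, chromosome 9, 20962361 to 20976781, 3 exons). Anomaly animals 1, 2 and 3 had 29.6 and 32.4, 30.1 and 26.6, and 14.0 and 13.4 CPM. Normal animals 1, 2 and 3 had 2.48 and 2.94, 2.39 and 2.40, and 1.80 and 0.964 CPM. Anomaly animal 3 was the lowest of its group in both pieces but above all normal libraries. The means were 24.4 ± 9.33 and 2.16 ± 0.69 CPM (SD, n = 3) and the difference was 2.96 ± 0.36 (limma adjusted p = 9.81e-04). Anomaly animals spread over 1.12 log2 units, against at most 0.17 between the pieces of an anomaly animal (0.51 in normal animals).

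S1pr3, a receptor of vascular smooth muscle and endothelium that couples to Gi, Gq and G12/13 (ENSMUSG00000067586, chromosome 13, 51408639 to 51422797, 2 exons), had 55.6 and 69.7, 38.9 and 69.2, and 42.0 and 31.7 CPM in anomaly animals 1, 2 and 3. Normal animals gave 7.69 and 7.68, 11.9 and 11.7, and 6.04 and 3.29 CPM. Its libraries did not overlap between the groups, and the 2 lesions of anomaly animal 2 differed by 0.81 log2 units, more than the 0.75 between the animals' means. The difference was 2.56 ± 0.36 (limma adjusted p = 0.00152), from 8.05 ± 3.58 to 51.2 ± 13.1 CPM (SD, n = 3). A non-coding gene on the other strand, Gm32834, shares 45 bases of its exons, and the unstranded reads there cannot be assigned to a strand.

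S1pr4, known as a receptor of leukocytes (ENSMUSG00000044199, chromosome 10, 81497747 to 81500132, 1 exon), differed most among the anomalies. It was at 3.71 and 3.51 CPM for anomaly animal 1, 30.2 and 20.5 CPM for animal 2 and 28.02 and 16.1 CPM for animal 3. Normal animals 1, 2 and 3 had 2.22 and 1.56, 1.72 and 1.44, and 1.01 and 0.964 CPM. Both pieces of anomaly animal 1 lay just above the normal range, the shallow one with 2 units, while animals 2 and 3 lay far above it. The anomaly animals spread over 2.49 log2 units, against at most 0.76 between pieces of an anomaly animal. The difference was 2.50 ± 0.67 (limma adjusted p = 0.0170), from 1.48 ± 0.46 to 17.0 ± 11.7 CPM (SD, n = 3). It was 3.29 without anomaly animal 1 (adjusted p = 4.60e-04). The call ended without anomaly animal 2 (adjusted p = 0.0548) or normal animal 3 (0.0600), in a range of 4.60e-04 to 0.0600 over 20 alternatives.

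**Figure D2:**
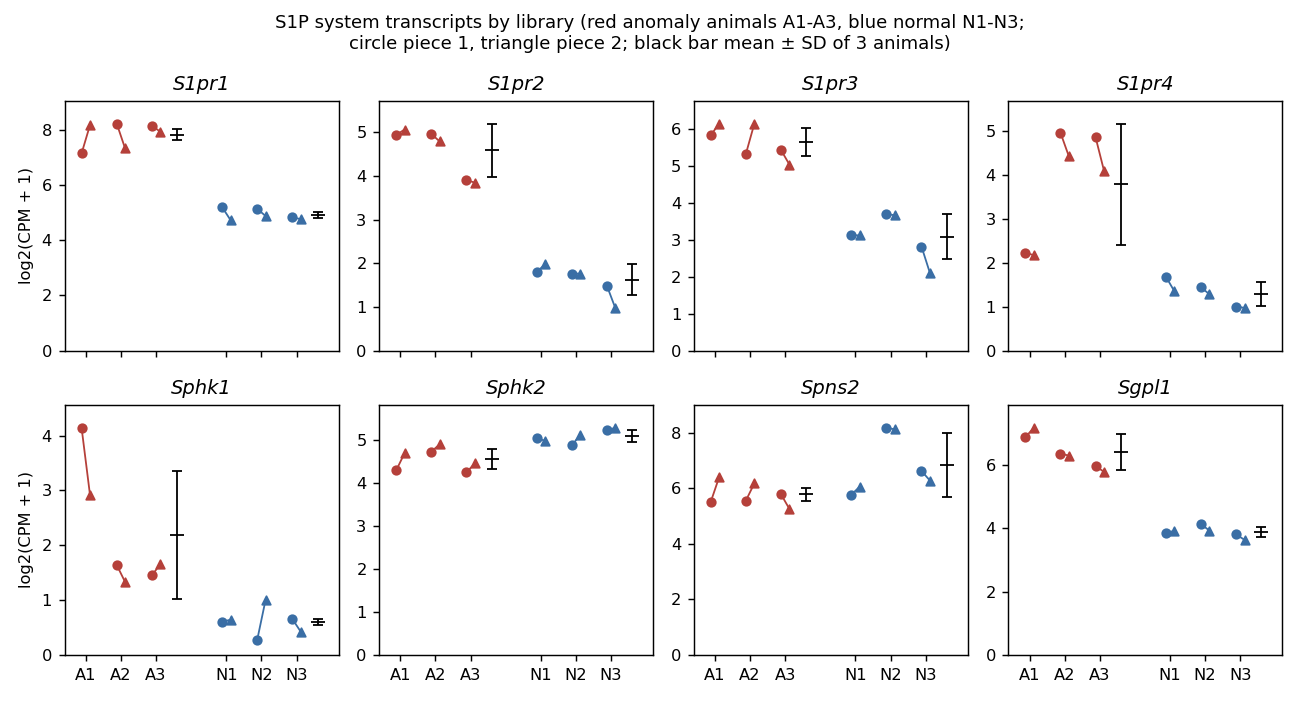
Level of each of the 8 genes in log2(CPM + 1) (vertical axes, each from 0) in every library of anomaly animals A1 to A3 (red) and normal animals N1 to N3 (blue), with circles for piece 1, triangles for piece 2 and black bars for the mean ± SD of 3 animals. S1pr4 is low and Sphk1 high in both pieces of A1, and Spns2 is high in both pieces of N2.

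Since both pieces of anomaly animal 1 stood apart in S1pr4, leukocyte markers were set beside it. The 7 macrophage markers, all of which rose, summed to 1827, 2103 and 527 CPM in anomaly animals 1, 2 and 3, and to 43.8 to 135 CPM in normal animals. The 8 lymphocyte markers, of which 4 rose (all 4 tested through the anomaly group alone), summed to 12.3, 30.7 and 12.6 CPM in anomaly animals 1, 2 and 3, and to 5.16 to 7.66 in normal animals, and Cd3g, Cd8a and Lck were at 0 in some library. Anomaly animal 1 thus had the lowest S1pr4 level of the anomalies beside a high macrophage sum, and animal 2 was highest in both. Animal 3 had a high S1pr4 level beside the lowest macrophage sum of the anomalies, which was still above all normal animals. Of 5 neutrophil markers 3 were tested and 1 rose (tested through the anomaly group alone). The 5 summed to 262, 22.2 and 7.27 CPM in anomaly animals 1, 2 and 3 and to 0.796, 1.37 and 14.7 CPM in normal animals 1, 2 and 3, with overlap. In anomaly animal 1 the shallow piece held 441 CPM and piece 2 held 82.7 CPM. S100a9, Ly6g and Mpo of that list were at 0 in some library. The part of leukocyte content in the S1pr4 difference was not tested.

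The remaining S1P receptor, S1pr5, was not among these genes. It stood at 1.03 ± 0.80 CPM in anomalies and 0.0999 ± 0.0371 CPM in normal muscle (SD, n = 3), and its difference of 0.71 ± 0.31 was not called (limma adjusted p = 0.0878). Summed per kilobase of exon, S1pr1, S1pr2, S1pr3 and S1pr4 reached 99.2 ± 8.38 CPM per kilobase in anomalies and 12.4 ± 1.78 in normal muscle (SD, n = 3, exact two-sided permutation p = 0.1, the smallest that 3 animals against 3 allow). S1pr1 held 78.1% ± 3.86 of it in anomalies and 78.8% ± 5.22 in normal muscle (SD, n = 3, exact permutation p = 1). S1pr3 held 11.8% ± 3.91 and 14.1% ± 4.57, S1pr4 6.94% ± 4.64 and 4.94% ± 1.096, and S1pr2 3.15% ± 1.39 and 2.14% ± 0.48, with overlapping animals in each case. A design of 3 against 3 cannot show that these shares are alike. Within anomalies the shares moved from animal to animal. S1pr4 held 1.68%, 10.4% and 8.72% in animals 1, 2 and 3, and S1pr2 held 4.33%, 3.50% and 1.62%.

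Sphk1, the inducible cytosolic kinase that makes S1P at the plasma membrane (ENSMUSG00000061878, chromosome 11, 116530925 to 116536674, 4 merged exons), was the least abundant of the 8 per length in both tissues. It was at 16.7 and 6.56 CPM (9 units and 146 reads) for anomaly animal 1, 2.12 and 1.51 CPM for animal 2 and 1.73 and 2.15 CPM for animal 3. Normal animals 1, 2 and 3 had 0.516 and 0.562, 0.209 and 1.01, and 0.575 and 0.340 CPM, from 5 to 19 reads each. Every anomaly library was above every normal one, animal 1 by far the most in both pieces. Means were 0.536 ± 0.076 CPM in normal muscle and 5.13 ± 5.62 CPM in anomalies (SD, n = 3). The difference was 1.59 ± 0.56 (limma adjusted p = 0.0448), or 0.92 without anomaly animal 1 (adjusted p = 0.00657). The call ended without any 1 of the normal animals (adjusted p up to 0.113) and in 7 of 20 alternatives in all, over which the adjusted p ran from 0.00657 to 0.120. Erythroid markers, of which 4 of 6 rose (1 tested through the anomaly group alone), summed to 41179 CPM in anomaly animal 1, to 1804 and 499 in animals 2 and 3 and to 72.8 to 203 in normal libraries. The 5 platelet markers, all of which rose (3 tested through the anomaly group alone), summed to 151, 57.7 and 24.4 CPM in anomaly animals 1, 2 and 3 and to 3.40 to 9.34 in normal libraries. Slc4a1 and Epb42, among others, of the erythroid list and Gp9 and Gp1bb of the platelet list were at 0 in some library. The part of either in the Sphk1 level was not tested. The antisense gene Gm29292, which shares 192 exonic bases with Sphk1, had at most 1 read in any library.

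Sphk2, the kinase found largely in the nucleus and mitochondria (ENSMUSG00000057342, chromosome 7, 45709467 to 45718002, 8 merged exons), had the smallest difference of the 8. Anomaly animals gave 18.5 and 24.8, 25.4 and 28.8, and 17.9 and 20.9 CPM. Normal animals gave 31.8 and 30.5, 28.2 and 33.7, and 36.3 and 37.9 CPM. The animals' means did not overlap, but the higher lesion of anomaly animal 2 exceeded the lowest normal library. The difference was -0.53 ± 0.18 (limma adjusted p = 0.0391), from 33.1 ± 3.49 to 22.7 ± 3.96 CPM (SD, n = 3). It was past the threshold in 10 of 20 alternatives (adjusted p from 0.00513 to 0.135), 1 of which turned the direction. That one, scaling by library totals alone, gave 0.58, where the median of all genes stood at 0.97. Exons of Sphk2 share 912 bases with Dbp and Rpl18 on the other strand. Dbp, a circadian transcription factor, stood at -1.90 ± 0.78 and the ribosomal gene Rpl18 at 0.38 ± 0.17, neither called (adjusted p = 0.0719 and 0.0875), and their part in the Sphk2 value was not tested.

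Sphk1 and Sphk2 were then compared within each animal. Library scaling cancels in such a ratio only where levels are well above the added 1 CPM, and Sphk1 in normal muscle was not. With library totals alone, Sphk1 differed by 2.30 and Sphk2 by 0.58, against 1.59 and -0.53 in the deposited scaling. The log2 ratio of Sphk1 to Sphk2 was -0.96, -3.33 and -2.79 in anomaly animals 1, 2 and 3 and from -4.71 to -4.35 in normal animals. No animal overlapped, and the difference was 2.12 (exact two-sided permutation p = 0.1, adjusted p = 0.2 over 12 ratios). With no pseudocount it was 3.25 (exact permutation p = 0.1), since 1 CPM added to the low Sphk1 values compresses them. Per kilobase of exon, Sphk1 made up 31.8%, 5.51% and 8.01% of the kinase transcripts in anomaly animals 1, 2 and 3, and 1.06% to 1.69% in normal animals. In anomaly animal 1, the shallow piece held 3.49 CPM per kilobase of Sphk1 and 4.46 of Sphk2, from 9 and 10 units. Piece 2 of that animal held 1.37 and 5.97, so that its share was lower than in the shallow piece. The sum of both kinases, 6.54 ± 1.32 in anomalies and 8.06 ± 0.82 CPM per kilobase in normal muscle (SD, n = 3), overlapped (exact permutation p = 0.3).

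Spns2, the transporter through which endothelial cells release S1P into blood and lymph (ENSMUSG00000040447, chromosome 11, 72451638 to 72489904, 13 merged exons), was the only 1 of the 8 whose animals overlapped between the groups. Anomaly animals gave 44.5 and 83.5, 45.9 and 71.0, and 54.1 and 37.2 CPM. Normal animals gave 53.3 and 65.6, 288 and 277, and 97.5 and 76.5 CPM. Normal animal 2, the one with Y-linked expression, was far above all others in both pieces. Piece 1 of normal animal 3 (97.5 CPM) also lay above every anomaly library, and the remaining normal libraries lay within the anomaly range. By animal means, normal animal 3 (87.0 CPM) was above the anomaly animals (45.6 to 64.0 CPM) and normal animal 1 (59.4 CPM) among them. Means were 143 ± 122 CPM in normal muscle and 56.0 ± 9.41 CPM in anomalies (SD, n = 3). The difference was -1.06 ± 0.56 (95% confidence interval -2.41 to 0.30, limma adjusted p = 0.140), or -0.40 without normal animal 2 (adjusted p = 0.243). It was not called in any of 20 alternatives (adjusted p from 0.0524 to 0.898). Its exons share 131 bases with Mybbp1a on the other strand, which stood at -0.39 ± 0.21 (adjusted p = 0.138).

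Sgpl1, the enzyme of the endoplasmic reticulum that cleaves S1P irreversibly (ENSMUSG00000020097, chromosome 10, 61098642 to 61147703, 15 merged exons), rose in every anomaly. Anomaly animals gave 117 and 144, 81.4 and 77.8, and 61.6 and 54.3 CPM. Normal animals gave 13.4 and 14.2, 16.5 and 14.3, and 13.02 and 11.5 CPM. Normal libraries lay within a narrow band, and the lowest anomaly library stood well above it. The difference was 2.53 ± 0.30 (limma adjusted p = 9.03e-04), from 13.8 ± 1.58 to 89.3 ± 37.2 CPM (SD, n = 3). Anomaly animals spread over 1.15 log2 units, against at most 0.30 between pieces of an anomaly animal.

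In levels per length, the order of the 8 genes changed between the tissues. In normal muscle Spns2 stood first at 35.04 ± 29.8 CPM per kilobase, S1pr1 at 9.74 ± 0.80, Sphk2 at 7.95 ± 0.84, Sgpl1 at 2.25 ± 0.26, S1pr3 at 1.80 ± 0.80, S1pr4 at 0.622 ± 0.193, S1pr2 at 0.271 ± 0.087 and Sphk1 at 0.112 ± 0.016 (SD, n = 3). In anomalies S1pr1 led at 77.6 ± 8.40, then Sgpl1 at 14.5 ± 6.06, Spns2 at 13.7 ± 2.31, S1pr3 at 11.5 ± 2.94, S1pr4 at 7.13 ± 4.91, Sphk2 at 5.46 ± 0.95, S1pr2 at 3.05 ± 1.17 and Sphk1 at 1.07 ± 1.18. Neighbours whose mean ± SD overlapped were Spns2 and S1pr1, and Sgpl1 and S1pr3, in normal muscle. In anomalies they were Sgpl1 and Spns2, Spns2 and S1pr3, S1pr3 and S1pr4, S1pr4 and Sphk2, and S1pr2 and Sphk1. The log2 ratio of Spns2 to Sgpl1 was 2.02, 4.12 and 2.73 in normal animals 1, 2 and 3, and -1.08, -0.47 and -0.36 in anomaly animals 1, 2 and 3, a difference of -3.59 without overlap (exact permutation p = 0.1, adjusted p = 0.2), and it ran from -4.06 to -3.01 over 12 alternatives. The ratio of Sphk1 to Sgpl1 differed by -0.94 (exact permutation p = 0.1), but by 0.08 with no pseudocount (exact permutation p = 1), so that no direction held for it.

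**Figure D3:**
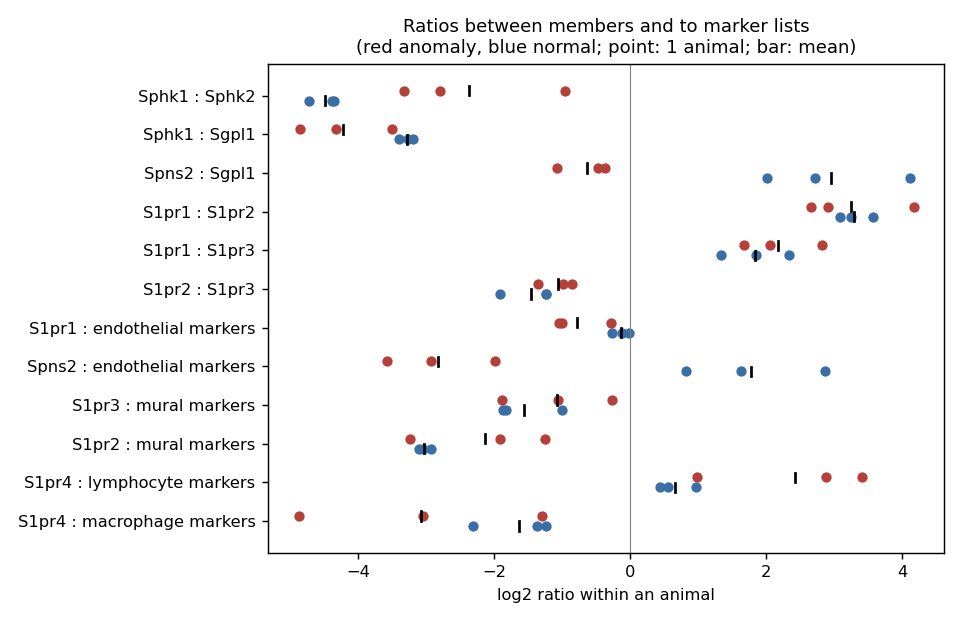
Log2 ratios within an animal (horizontal axis) for 12 pairs of genes or of a gene and the mean of a marker list, with 1 point per animal, red for anomaly and blue for normal, and bars for group means. Spns2 against Sgpl1 and against endothelial markers separates the groups by -3.59 and -4.61, while the ratios between receptors overlap with the pseudocount of 1 CPM used here (without it, S1pr2 to S1pr3 does not overlap).

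S1pr1 and Spns2 were also set against endothelial content. Against the mean of the 10 endothelial markers, S1pr1 was at -0.27, -1.01 and -1.04 log2 units in anomaly animals 1, 2 and 3 and from -0.27 to -0.01 in normal animals, a difference of -0.65 (exact permutation p = 0.1, adjusted p = 0.2). The median difference of these markers was 3.68, against 2.90 for S1pr1, with Emcn at 4.03 ± 0.17 and Pecam1 at 3.796 ± 0.26. Spns2 against the same markers lay between 0.83 and 2.87 in normal animals and between -3.57 and -1.98 in anomaly animals, a difference of -4.61 (exact permutation p = 0.1, adjusted p = 0.2). Spns2 itself stood at -1.06 ± 0.56 and was not called, while the median difference of these markers was 3.68. Muscle fibre markers fell in the same libraries, and their part in the Spns2 ratio was not tested. The 7 mural markers, of which 5 rose, summed to 250.2 to 592 CPM in normal and 959.9 to 2668 CPM in anomaly libraries. Ratios of S1pr2 and S1pr3 to them differed by 0.89 and 0.49, with overlapping animals (exact permutation p = 0.4 and 0.7). The ratio of S1pr4 to the lymphocyte markers was 0.98, 2.88 and 3.41 in anomaly animals 1, 2 and 3 and 0.44 to 0.97 in normal animals, and that of S1pr4 to the macrophage markers overlapped. Ratios between receptors overlapped too with the pseudocount of 1 CPM, with differences of -0.05 for S1pr1 to S1pr2, 0.34 for S1pr1 to S1pr3 and 0.40 for S1pr2 to S1pr3 (exact permutation p = 1, 0.5 and 0.3). With no pseudocount the S1pr2 to S1pr3 ratio no longer overlapped, at -1.01, -0.93 and -1.43 in anomaly animals 1, 2 and 3 and -1.85 ± 0.41 (SD, n = 3) in normal animals, a difference of 0.73 (exact permutation p = 0.1). The S1pr1 to S1pr2 difference was then -0.47, with overlap (exact permutation p = 0.4).

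Other genes of S1P handling were read from lists of the pathway. Over all genes tested, 32.4% were higher and 31.0% lower, at a median difference of 0.09. Among 10 other S1P genes, 8 were tested, of which 3 were higher, 0 lower and 5 not called, at a median difference of 0.36. The higher share of this list was near that of all genes tested. Plpp2 and S1pr5 passed the filter through the anomaly group alone. The higher ones were the lipid phosphate phosphatases Plpp2 (4.87 ± 0.24, from 0.572 ± 0.188 to 49.2 ± 6.76 CPM) and Plpp1 (0.82 ± 0.25), which dephosphorylate S1P and related lipids outside the cell, and the lipid exporter Abca1 (2.74 ± 0.49). Of 5 measured ceramidase and ceramide kinase genes (6 listed), 4 were higher, 0 lower and 1 not called, at a median of 1.84. The acid ceramidase Asah1, which frees sphingosine in lysosomes, rose by 1.69 ± 0.28, Acer3 by 2.07 ± 0.24, Asah2 by 0.88 ± 0.30 and the ceramide kinase Cerk by 3.09 ± 0.23, while Acer2 stood at 1.84 ± 0.71 (adjusted p = 0.0594).

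Genes of de novo ceramide synthesis changed in both directions, as did all genes tested (32.4% higher and 31.0% lower). Of 15 genes tested of 18, 9 were higher, 4 lower and 2 not called, at a median of 1.36. Of these, 1 higher gene passed the filter through the anomaly group alone and Cers1 through the normal group alone. Sptlc2, a subunit of serine palmitoyltransferase, rose by 2.56 ± 0.23, and the ceramide synthases Cers5 and Cers2 rose by 3.09 ± 0.23 and 1.65 ± 0.18. Cers1, the ceramide synthase of skeletal muscle and brain, stood at -3.89 ± 0.24, from 23.6 ± 3.39 to 0.764 ± 0.417 CPM. Rtn4 (Nogo) and Ormdl3, inhibitors of serine palmitoyltransferase, stood at -2.15 ± 0.30 and -0.92 ± 0.19. Of the same inhibitor family as Ormdl3, Ormdl2 rose by 1.36 ± 0.24 and Ormdl1 stood at -1.002 ± 0.23. Muscle fibre markers fell in the same libraries, 7 of 8 past the threshold, with Myh4 at -9.53 ± 0.93, and their part in these lower values was not tested. Among 8 sphingomyelin and glucosylceramide genes, 2 were higher (among them Ugcg at 2.23 ± 0.37), 2 lower (Smpd1 at -2.004 ± 0.33 and Sgms1 at -1.42 ± 0.18) and 4 not called, at a median of 0.17. Neither the higher nor the lower share of this list was above that of all genes tested. These enzymes make and break the sphingolipids from which sphingosine is drawn.

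Downstream of the receptors, 11 of 18 genes of G proteins and their effectors were higher, 3 lower and 4 not called, at a median of 1.11. Of all genes tested, 32.4% were higher and 31.0% lower. The Gi subunits Gnai2 and Gnai3, through which S1pr1 acts, rose by 2.96 ± 0.24 and 2.16 ± 0.18, and Gnaq, a partner of S1pr3, by 1.17 ± 0.16. The lower ones were Tiam1, an activator of RAC (-1.44 ± 0.47), the cytoskeletal kinase Rock2 (-0.79 ± 0.24) and the guanine nucleotide exchange factor Arhgef11 (-0.67 ± 0.16). Of 6 tested genes that regulate S1PR1, 5 were higher, 0 lower and 1 not called (Grk2 at -0.24 ± 0.16), at a median of 1.23. Over 21 alternatives the higher count ran from 1 (adjusted p of 0.01) to 7 (library totals alone, 7 tested). Trimmed mean scaling without the 50 most abundant genes gave 3 higher and 1 lower. The arrestins Arrb2 and Arrb1, which take up activated receptors, rose by 2.09 ± 0.29 and 1.16 ± 0.29, and Klf2, a transcriptional activator of S1pr1, by 1.69 ± 0.42.

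**Figure D4:**
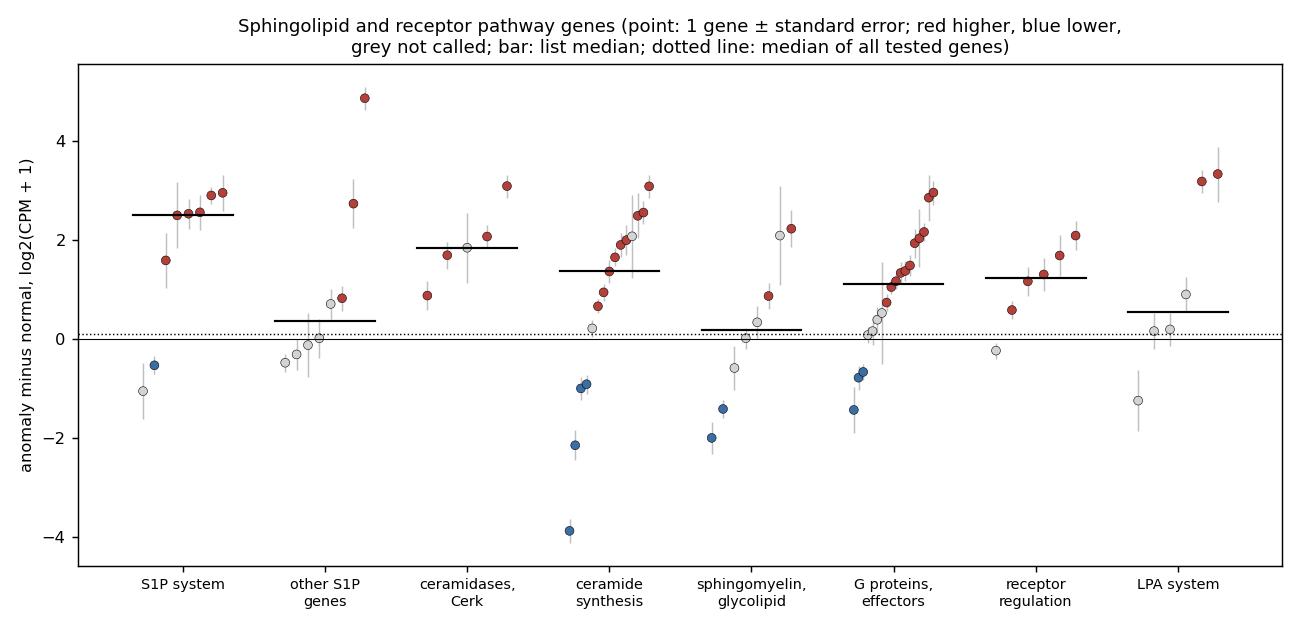
Difference between anomaly and normal muscle in log2(CPM + 1) (vertical axis) for the tested genes of 8 lists, with 1 point per gene ± standard error, red for higher, blue for lower and grey for not called, black bars for list medians and a dotted line for the median of all genes tested. The S1P system has a median of 2.52, and Cers1 lies at -3.89.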

How the data were processed

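Per the labels' protocols, snap-frozen tissue was extracted with a Qiagen RNeasy kit, and polyadenylated RNA was made into unstranded Illumina TruSeq libraries. Per the file headers, counts came from STAR's gene output. The submitters' processing notes list STAR, limma and the mm10 (GRCm38) build, and versions are not given in the sources used here. The authors deposited log2 values of CPM per gene. Their floor of -6.707 was removed on the linear scale, which left every value a whole number of equal steps (tolerance 0.01), read as reads. CPM keeps the authors' scaling. The mean log2(CPM + 1) of an animal's 2 libraries was used, and genes reaching a group mean of 1 CPM went into limma 3.58.1 in R 4.3.3 (trend on), with Benjamini-Hochberg adjustment over all 14687 genes at 0.05. Ratios and shares used exact permutations of the 6 animals. The pipeline was tested on simulated data. Coordinates and merged exon lengths came from a GENCODE annotation of GRCm38. Of 30389 genes, 14797 had a symbol in the table, and the others were matched by Ensembl ID to the annotation, which held 30294 of the IDs.

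Members and lists were chosen with earlier results of these data known. From each pathway list, up to 3 genes per direction with the smallest p past the threshold were named, with every gene of a list of 5 or fewer measured genes, and 2 from each marker list. Genes overlapping members and marker genes at 0 in some library were named after their values were seen. So were Enpp2, S1pr5, Lpar5, Ormdl1, Ormdl2, Grk2 and the Y-linked Ddx3y. Some genes of the lists are counted but not reported by name here. Acer1 and Ccl21a had no match in the table. Alternatives covered scaling, pseudocount, filter, pieces, blocks, voom, each animal left out and a stricter threshold. Reads were counted without molecular identifiers, and low values carry counting error beside the spread between animals.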

Additional observations from a re-analysis of the deposited data

How the results depend on the processing

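S1pr1, S1pr2, S1pr3 and Sgpl1 were higher under 20 alternatives to the fit (the stricter threshold aside), with differences from 2.13 to 4.04. The count of higher members was 7 with library totals alone, 4 at an adjusted p of 0.01 and from 4 to 6 when 1 animal was left out. The count of lower members, 1 (Sphk2), became 0 with library totals alone, no filter, either piece alone, anomaly animal 1 by piece 2 alone, voom on reads summed per animal or an adjusted p of 0.01, and was 0 to 1 when 1 animal was left out. With library totals alone, Sphk2 turned to 0.58 and Spns2 to 0.084, below the median of all genes, which moved from 0.09 to 0.97. Relative to that median they stood at -0.38 and -0.88, against -0.62 and -1.15 in the deposited scaling. The small difference in the S1pr1 to S1pr2 ratio (-0.05) turned to 0.47 with a pseudocount of 3, 0.028 by piece 2 alone and 0.10 with anomaly animal 1 by piece 2 alone, and ran from -0.52 to 0.24 when 1 animal was left out. The Sphk1 to Sgpl1 ratio turned to 0.077 with no pseudocount, an alternative chosen after seeing the data, since the added 1 CPM compresses Sphk1 in normal muscle. Without it the S1pr2 to S1pr3 ratio moved from 0.40 to 0.73 and Sphk1 to Sphk2 from 2.12 to 3.25. The other 10 ratios kept their direction in every alternative run. None of the ratio alternatives changed the library scaling. With the piece number as a replicate block and the animal as a random block, 6 members were higher and 1 lower, the same counts as with no block, and the piece letter gave these too. Piece numbers share only a number: over 18 same-numbered pairs across groups, the median correlation of deviations from group means was 0.0056 (-0.16 to 0.11). Of 294 counts for the other lists under alternatives, 265 stayed within 1.5 times. Depth limits Sphk1 and S1pr4, with 5 to 43 reads in normal libraries. In the 18 alternatives other than library totals alone, trimmed mean scaling and the stricter threshold, 14.3% to 35.5% of all genes tested were higher and 14.5% to 34.2% lower.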

Other observations

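The lysophosphatidic acid (LPA) system, another lysophospholipid signalling system, was read as a further list. With limma, 2 of its 6 tested genes passed the threshold, both higher, at a median log2 difference of 0.55, a share near the 32.4% of all genes tested that were higher. Of the 6, Lpar4 and Lpar5 passed the filter through the anomaly group alone. The higher ones were Lpar6 (3.19 ± 0.24, from 2.40 ± 0.34 to 30.7 ± 8.14 CPM, SD, n = 3) and Lpar4 (3.34 ± 0.56, from 0.497 ± 0.150 to 17.2 ± 10.5 CPM), both receptors that couple to G12/13. Enpp2, which encodes autotaxin, the enzyme that makes LPA outside cells, stood at -1.25 ± 0.61 (limma adjusted p = 0.115).

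Among 13079 other named genes, those whose 6 animal means lay closest to a member's were found by the root mean square difference in log2 units from the normal mean. A similar difference between the groups goes far to make a gene close, such as 2.83 for Pkmyt1 and 2.90 for Ska3 beside 2.90 for S1pr1. Among so many genes some lie close to any member, and a shared function was not tested. Pkmyt1 and Ska3, both of mitosis, lay closest to S1pr1 (0.09 and 0.11), and Trpv2 and Nipsnap3b to S1pr2 (0.12 each). Itpripl2 and Adamts2 lay closest to S1pr3 (0.12 and 0.15), and Smagp and Rnf152 to S1pr4 (0.18 and 0.19). Spsb1 and the platelet glycoprotein gene Gp9 lay closest to Sphk1 (0.10 and 0.12), and Parpbp and Chst14 to Sgpl1 (0.08 and 0.09). Rfc4 and Orc5, both of DNA replication, lay closest to Sphk2 (0.04 and 0.08), and Crip3 and Cacna2d4 to Spns2 (0.26 and 0.37), the largest distances of the 8.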
